A study of Bos taurus with 40 samples.

Results

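The comparison described here set the endometrium of the contralateral uterine horn on day 16 against that of the same horn on day 7, with 5 libraries a side. It was chosen by horn and day alone and takes in 10 of the 40 libraries of the series. Endometrium, the inner lining of the uterus, was taken at slaughter from both horns of heifers whose cycles had been synchronized, with 5 heifers on each of days 5, 7, 13 and 16. About 100 mg of tissue was homogenized whole, so all its cell types are mixed, and stranded mRNA libraries were sequenced. The contralateral horn is taken here to be the one on the side opposite the ovary that bears the corpus luteum, the gland that makes progesterone. The design text counts the days from estrus while the sample labels call them days of pregnancy, and neither says whether an embryo was present. Breed and age were not stated in these labels. Each library title carries a tag, read here as that of a heifer; each tag occurs in both horns and on 1 day only, and libraries are named here by day and tag. The day 16 libraries come from heifers 2-068, 3-155, 5-137, 7-107 and 8-245, and the day 7 libraries from heifers 2-1337, 2-371, 4-064, 5-117 and 6-338. Values by library are given below in these orders.

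After ovulation progesterone from the corpus luteum changes the endometrium step by step. Early in this luteal phase the epithelium still carries the progesterone receptor and cells still divide; later the epithelial receptor is lost, and glands and surface epithelium switch to another set of secreted proteins, transporters and enzymes. Late in the cycle of a cow without a conceptus, oxytocin acting on its endometrial receptor drives pulses of prostaglandin F that end the life of the corpus luteum, whereas a conceptus prevents this by secreting interferon tau.

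The 10 libraries held 32 to 33.9 M counts (M, mega) in genes on day 16 and 30.8 to 35.5 M on day 7 (exact two-sided permutation test, p = 0.81). The mitochondrial row held 0.154% to 0.200% of reads on day 16 and 0.112% to 0.329% on day 7 (exact permutation p = 0.151). The share of reads in microRNA and tRNA genes, a small fraction that a library of polyadenylated RNA should hardly hold, was 0.0129% to 0.0161% on day 16 and 0.00945% to 0.0118% on day 7, with no overlap (exact permutation p = 0.00794, the smallest that 5 against 5 can give). A fit with this share as a covariate called 4242 genes between the days in place of 7483, and the genes named below that lost their call in it are given with the other limits at the end. Since the share does not overlap between the days, it and the day cannot be told apart. Markers of epithelium summed to 2101 to 2699 CPM on day 16 and 1869 to 2586 CPM on day 7, where CPM is the read count of a gene relative to the scaled size of its library and is not corrected for gene length. Markers of stroma summed to 13967 to 18049 CPM on day 16 and 14508 to 27326 CPM on day 7. Of the 14 genes of the trophoblast list in the table, PAG11, TKDP1, TKDP4 and CSH2 were at 0 in all 10 libraries. Of the 6 that could be tested 1 was higher and 2 were lower on day 16. The higher one was PTGS2, which is also in the prostaglandin list below. The summed level of the list is given at the end. Whether conceptus RNA was present was not tested.

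Of 19559 genes tested, 7483 differed between day 16 and day 7 at an adjusted p below 0.05, which is 38.3% of all. On day 16 3627 of them were higher (18.5% of genes tested) and 3856 were lower (19.7%), and 2607 differed by 2-fold or more (13.3%). The median log2 fold change over all genes was 0.02. With so many genes changed, a gene list with about that share of changed members stands no further out than the whole table. In 5051 genes (25.8%) the 5 libraries of day 16 did not overlap the 5 of day 7.

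Day 13, sampled from other heifers, was set between the 2 days to sort these differences by their course. The contrasts of day 13 against day 7 and of day 16 against day 7 share the day 7 libraries, and those of day 16 against day 13 and against day 7 share the day 16 libraries, so the counts below describe and do not test. Between day 13 and day 7 6550 genes passed (33.5% of those tested), and 2067 of these by 2-fold or more (10.6%), 928 higher (4.74%) and 1139 lower (5.82%). Of the 2067, 1785 were lasting: they passed in the same direction on day 16 and had not moved back from day 13. They make up 86.4% of the 2067, 774 of them higher and 1011 lower than on day 7. The lasting genes that were higher had a median log2 fold change of 1.53 on day 13 and 1.62 on day 16, and those that were lower had medians of -1.73 and -1.99. Only 24 genes, or 1.16% of the 2067, were reverted, meaning that they passed back toward day 7 between days 13 and 16 and no longer passed against day 7. Another 12 were partly reverted, 1 was overturned, and 245 passed neither test that would place them. In 0 of these 245 was the change larger on day 16 than on day 13. The 128 that had been higher had medians of 1.32 on day 13 and 0.70 on day 16, and the 117 lower ones -1.58 and -0.82. On day 16 67 of the 245 were still 2-fold or more from day 7 in the same direction. This group holds genes that did not pass on day 16, so smaller changes there are partly built in. Against day 7 600 genes had not passed on day 13 and passed at 2-fold or more on day 16. Of these, 50 also passed in the same direction between days 13 and 16 and are called late, 11 of them higher and 39 lower; for the other 550 that step did not pass. Directly between day 16 and day 13 328 genes passed, 1.68% of those tested, 119 higher (0.608%) and 209 lower (1.07%) on day 16.

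**Figure D1:**
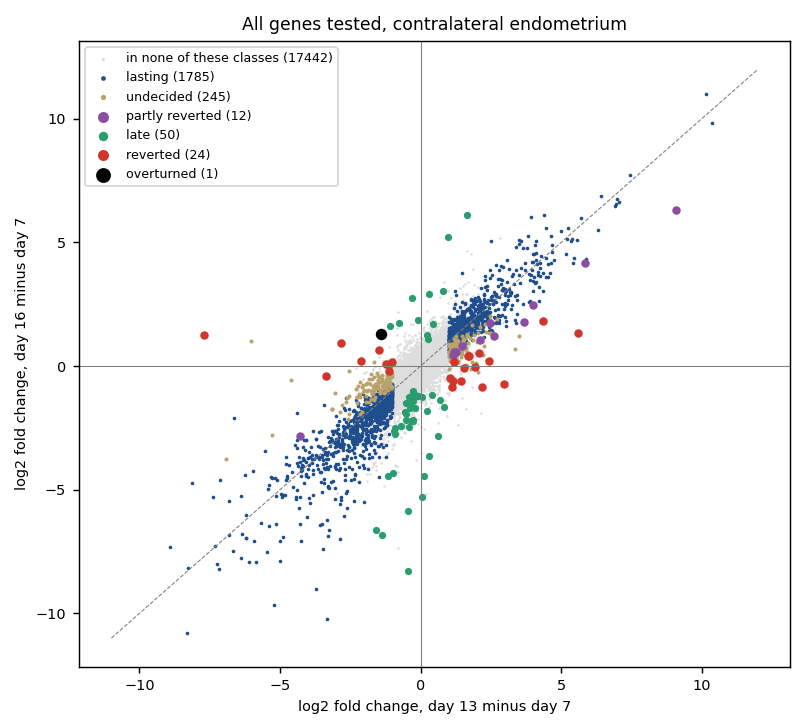
Each point is 1 of the 19559 genes tested; the horizontal axis gives the log2 fold change of day 13 minus day 7 and the vertical axis that of day 16 minus day 7, both in the contralateral horn and sharing the day 7 libraries, and the dashed line marks equal values. The 1785 lasting genes run along the dashed line, the 24 reverted genes lie near the horizontal zero line, and the 50 late genes lie near the vertical one.

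The reverted and late classes are small and move with single libraries. Without day 13 library 5-167 11 genes were reverted, and without day 16 library 2-068 12 were. Without day 16 library 8-245 29 genes were late, and without day 16 library 2-068 30 were. The lasting class held between 1627 and 1855 genes when any 1 library of days 7, 13 or 16 was left out.

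Secreted proteins of the glands and surface epithelium included some that appeared after day 7 and others that were lost. Of 32 tested secreted proteins, 11 rose and 8 fell on day 16, and 15 of these changes were lasting. The median of the list was 0.21. IGFBP1, a binding protein for insulin-like growth factors, was at 138, 239, 196, 251 and 74.8 CPM in the day 16 libraries, against 0.411, 0.192, 0.268, 0.103 and 0 CPM in the day 7 libraries. Every day 16 library lay far above every day 7 library, and the log2 fold change was 9.8 ± 0.66, adjusted p = 3.40e-09 (± is the standard error throughout). IGFBP1 had averaged 262 CPM on day 13, and the step between days 13 and 16 was -0.54 ± 0.40, adjusted p = 0.625. IGFBP2, a second binding protein, rose by 2.13 on the log2 scale (adjusted p = 6.43e-04), while the 2 ligands and 3 receptors of the IGF list did not pass. TINAGL1, a matricellular protein of basement membranes, had 219.9, 361, 324, 268 and 301 CPM on day 16, against 26.9, 22.4, 19.8, 33.2 and 12.2 CPM on day 7 (3.69 ± 0.30, adjusted p = 2.36e-08). The meprin subunit MEP1B, a metalloprotease of the apical membrane, averaged 225 ± 64 CPM on day 16 and 6.69 ± 3.29 CPM on day 7 (SD, n = 5 each), a log2 fold change of 5.07. The cysteine protease inhibitor CST6 (log2 fold change 2.86), the metalloprotease inhibitor TIMP2 (1.36), the retinol carrier RBP4 (1.73), the neuropeptide gastrin-releasing peptide GRP (1.59), the opioid precursor PENK (2.57) and the chaperone clusterin CLU (1.02) also rose without overlap between the days. All but PENK and CLU were lasting: on day 13 PENK had not passed (log2 fold change 1.51), nor did its step between days 13 and 16, and CLU stood just under 2-fold (0.99).

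Other secreted and surface proteins had their high level on day 7 and lost it. ANPEP, an aminopeptidase of brush borders, was at 42.7, 48, 23.8, 39.2 and 43.8 CPM on day 16, against 1381, 1585, 1606, 1966 and 1163 CPM on day 7. The groups lay far apart, with a log2 fold change of -5.28 ± 0.31, adjusted p = 1.27e-09. The iron-binding antimicrobial protein lactoferrin, LTF, was at 17.2, 18.8, 12.5, 38.8 and 29.6 CPM on day 16, against 644, 1082, 903, 1433 and 654 CPM on day 7 (-5.33 ± 0.55, adjusted p = 3.94e-07). Both had been lower on day 5 than on day 7, with means of 430.3 CPM for ANPEP and 339 CPM for LTF, so the day 7 mean was the highest of the 4 days for each. Osteopontin, SPP1, an adhesive glycoprotein, had 0.872, 0.65, 1.44, 1.88 and 2.23 CPM on day 16, against 6.31, 25.8, 12.5, 14.5 and 65.3 CPM on day 7 (-4.13 ± 0.64, adjusted p = 4.47e-05). The vasoactive peptide endothelin 3, EDN3, averaged 3.22 ± 1.01 CPM on day 16 and 50.8 ± 14.3 CPM on day 7 (SD, n = 5 each), and 7.92 CPM on day 5. GM2A, a lysosomal lipid-binding activator, fell by steps: its log2 fold change was -1.66 on day 13 and -3.06 on day 16, and the step between them passed as well (-1.4 ± 0.27, adjusted p = 0.0134). The protease inhibitor WFDC2 fell with a log2 fold change of -1.52.

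**Figure D2:**
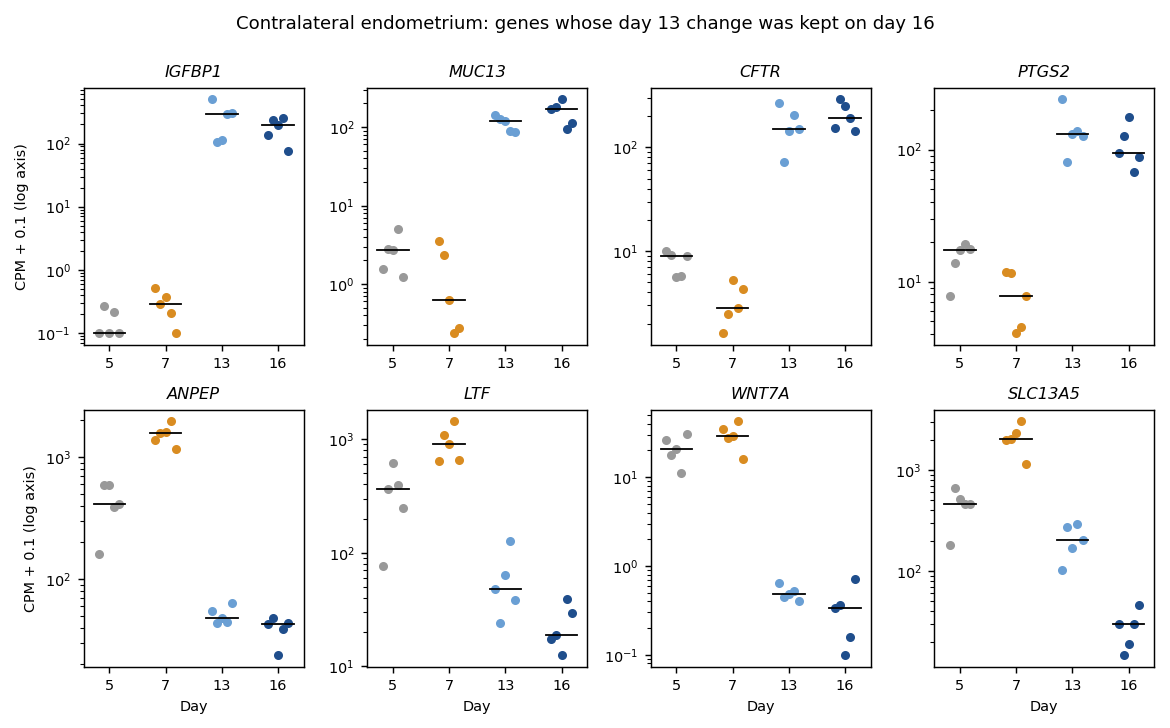
CPM plus 0.1 on a log axis in the 5 contralateral libraries of each day for 8 lasting genes; points are libraries and bars are medians. IGFBP1, MUC13, CFTR and PTGS2 sit far higher on days 13 and 16 than on day 7, and ANPEP, LTF, WNT7A and SLC13A5 far lower, with no overlap between day 16 and day 7 in any of the 8.

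Surface and junction genes changed in both directions. The membrane mucin MUC13 was at 169, 181, 224, 93.4 and 111 CPM on day 16, against 3.47, 2.21, 0.535, 0.138 and 0.178 CPM on day 7 (6.88 ± 0.62, adjusted p = 8.15e-08). In contrast MUC20, another membrane mucin, averaged 3.11 ± 2.12 CPM on day 16 and 36.2 ± 16.4 CPM on day 7 (SD, n = 5 each; log2 fold change -3.54). Of 16 tested mucin and defence genes, 4 rose and 4 fell, all 8 lasting, and the list median was 0.51; the polymeric immunoglobulin receptor PIGR, which carries antibodies across epithelium, rose (3.7, adjusted p = 6.59e-05). MUC16 rose as well (2.59) but had averaged 35.6 CPM on day 5, above its day 16 mean of 24.6 CPM. The tight junction gene CLDN4 rose (2.82) while CLDN7 fell (-1.08) and the polarity gene LLGL2 fell (-1.45). UPK1B, a tetraspanin of the urothelial plaque that is also made in other epithelia, had 2.62, 1.39, 2.03, 0.825 and 1.09 CPM on day 16, against 318, 265, 117, 175 and 194 CPM on day 7 (-7.07 ± 0.54, adjusted p = 1.22e-08). SERPINB12, an intracellular serine protease inhibitor, had 0.291, 0.207, 0.246, 0.294 and 0.235 CPM on day 16, against 10.3, 109, 66.4, 67.3 and 132 CPM on day 7 (-8.22 ± 0.69, adjusted p = 3.71e-08). NPNT, a matrix ligand of integrins, moved the other way with 621, 834, 678, 588 and 417 CPM on day 16, against 24.7, 24.8, 18.2, 20.3 and 16.8 CPM on day 7 (4.91 ± 0.26, adjusted p = 4.73e-10). Of the 18 epithelial markers tested, 4 were higher and 5 lower, with a median of -0.07, while their summed level overlapped between the days as given above; fewer cells of a type and less RNA per cell cannot be told apart in bulk tissue.

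Of 25 tested genes of ion, water and calcium transport, 9 were higher and 4 lower on day 16, with a list median of 0.87. Over all genes 18.5% were higher and 19.7% lower. By role, 3 of 12 chloride, sodium and bicarbonate genes rose and 3 fell. Of 7 calcium genes 4 rose and 1 fell, and of 6 water channels 2 rose and 0 fell. With the microRNA and tRNA share as a covariate 5 of the 25 were higher and 3 lower. The chloride and bicarbonate channel CFTR was at 154, 289.7, 250.3, 190.1 and 143 CPM on day 16, against 1.53, 2.37, 5.17, 2.76 and 4.26 CPM on day 7 (5.99 ± 0.40, adjusted p = 3.11e-09). The alpha subunit of the epithelial sodium channel, SCNN1A, fell to a mean of 15.6 ± 3.49 CPM on day 16, against 109 ± 30.1 CPM on day 7 (SD, n = 5 each; log2 fold change -2.81). Both changes were lasting. The calcium-binding protein CALB1 was at 15.5, 27.5, 13.9, 24 and 6.66 CPM on day 16, against 0.117, 0.128, 0.119, 0.0345 and 0 CPM on day 7 (7.7 ± 0.90, adjusted p = 1.63e-06), and the vitamin D receptor VDR rose by 1.63 (adjusted p = 8.67e-05). VDR and CALB1 had already changed on day 13. CYP24A1, the enzyme that inactivates vitamin D hormone and a known target of its receptor, was late: it was at 6.48, 18.9, 19.7, 8.28 and 34.7 CPM on day 16, against 1.5, 1.86, 4.55, 1.52 and 3.73 CPM on day 7 (2.74 ± 0.56, adjusted p = 6.86e-04). On day 13 CYP24A1 had been at 0.592 to 3.48 CPM, below every day 16 library.

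Among prostaglandin genes 5 of 19 rose and 3 fell, with a median of 0.25; without day 7 library 4-064 3 rose (median 0.12). PTGS2, the cyclooxygenase that makes the common precursor of the prostaglandins, was at 94.9, 127, 175, 67.1 and 87.6 CPM on day 16, against 11.7, 11.6, 3.98, 4.42 and 7.7 CPM on day 7 (3.81 ± 0.38, adjusted p = 2.36e-07). The phospholipase PLA2G4A, which frees arachidonic acid for that step, rose with it (1.24 ± 0.21, adjusted p = 8.67e-05), and both were lasting. AKR1B1, an aldo-keto reductase that forms prostaglandin F, fell instead. It was at 351, 371, 385, 351 and 389 CPM on day 16, against 1058, 1029.7, 1283, 1403 and 383 CPM on day 7 (-1.48 ± 0.25, adjusted p = 1.17e-04). Day 7 library 6-338 lay inside the day 16 range, while the other 4 day 7 libraries lay far above it. Of the prostaglandin E receptors PTGER2 rose (1.4) and PTGER4 fell (-1.08).

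Of the 17 steroid and oxytocin receptor genes and their targets 5 rose and 6 fell on day 16. The progesterone receptor PGR was at 3.72, 5.97, 3.59, 5.07 and 8.95 CPM on day 16, against 8.52, 6.95, 4.04, 7.69 and 9.56 CPM on day 7, and the groups overlapped (-0.43 ± 0.28, adjusted p = 0.244). PGR had passed on day 13 (-1.05 ± 0.28, adjusted p = 0.00762), and its step between days 13 and 16 did not pass (0.62 ± 0.28, adjusted p = 0.356), so it counts neither as lasting nor as reverted. The estrogen receptor ESR1 fell to 12.7, 9.93, 10.8, 12.3 and 13.4 CPM on day 16, against 14, 18.8, 16.8, 19.6 and 20.2 CPM on day 7 (-0.60 ± 0.18, adjusted p = 0.0127), and ESR2 fell as well, with a log2 fold change of -0.74 and no overlap. The estrogen-regulated genes GREB1 (-1.41) and TFF3 (-3.92) and the progesterone- and cortisol-regulated cochaperone FKBP5 (-1.1) fell too. Membrane progesterone receptors went opposite ways: PAQR5 was at 3.9, 3.52, 3.68, 2.65 and 3.2 CPM on day 16, against 0.499, 0.256, 0.446, 0.345 and 0.414 CPM on day 7 (3.1 ± 0.29, adjusted p = 1.42e-07), whereas PAQR8 was at 17.2, 17.2, 18.1, 20.2 and 13.9 CPM on day 16, against 79, 57.4, 82.7, 70.2 and 75.6 CPM on day 7 (-2.08 ± 0.17, adjusted p = 2.84e-08). PAQR8 had averaged 29.4 CPM on day 5, so its day 7 level was again the highest of the 4 days. The glucocorticoid receptor NR3C1 rose (0.90, adjusted p = 2.98e-05).

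OXTR, the oxytocin receptor, was the only gene whose day 13 change was overturned by day 16. It was at 16.3, 24.4, 10.1, 21.9 and 33.7 CPM on day 16, against 10.2, 14.5, 2.47, 3.52 and 12.4 CPM on day 7, and 1 day 16 library lay inside the day 7 range. On day 13 it had been at 1.9, 7.57, 2.58, 1.84 and 2.48 CPM, and on day 5 at 31.4 to 108 CPM. The log2 fold change was -1.4 for day 13 minus day 7 and 2.7 for day 16 minus day 13 (adjusted p = 0.0111). For day 16 minus day 7 it was 1.3 ± 0.48, adjusted p = 0.0375, and this last call was lost without day 16 library 3-155, 7-107 or 8-245 and without day 7 library 2-1337, 4-064 or 5-117, with adjusted p of up to 0.0995 and log2 fold changes no lower than 1.05. That call was also lost with only the 15 libraries of days 7, 13 and 16 in the fit (adjusted p = 0.0545) and with only the 10 of days 7 and 16 (adjusted p = 0.0549). The day 5 level was the highest of the 4 days.

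Of 28 glucose and amino acid transporters 7 rose and 6 fell on day 16, with a list median of -0.12. The facilitative glucose transporter SLC2A1 was at 251, 408, 526, 292 and 426 CPM on day 16, against 86.9, 77.8, 84.2, 82.1 and 72.8 CPM on day 7 (2.24 ± 0.18, adjusted p = 2.48e-08). SLC2A1 rose again between days 13 and 16 (0.94 ± 0.17, adjusted p = 0.0101). The sodium-coupled glucose transporter SLC5A1 was at 169, 183, 341, 87.4 and 97.7 CPM on day 16, against 15.2, 31.3, 18.6, 28.2 and 17.7 CPM on day 7 (2.98 ± 0.40, adjusted p = 9.83e-06), after a mean of 200.2 CPM on day 13. The fructose transporter SLC2A5 had at most 0.118 CPM on day 16 and 1.17 to 15.2 CPM on day 7; the table also lists a second entry of that name, so its reads may be split. The glutamate transporter SLC1A1 rose (1.29) and the large neutral amino acid transporter SLC7A8 fell (-1.79). The citrate transporter SLC13A5 fell in clear steps, to 29.5, 14.7, 18.7, 29.5 and 46.2 CPM on day 16, against 1976, 2004, 2318, 3025 and 1133 CPM on day 7 (-6.24 ± 0.43, adjusted p = 4.69e-09). Its day 13 libraries lay between, at 102 to 291 CPM, and the step between days 13 and 16 also passed (-2.9 ± 0.37, adjusted p = 8.06e-04).

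Of all genes tested 18.5% rose and 19.7% fell, and the lipid lists are read beside those shares. Of 23 tested genes of cholesterol synthesis and uptake, 7 rose and 3 fell (median 0.20); HMGCS1 (1.76) and SQLE (1.4), enzymes of the synthesis pathway, and INSIG1 (1.37), the brake on its regulator, were among the higher ones. With the microRNA and tRNA share as a covariate 4 rose and 2 fell (median -0.05). Of 26 triglyceride and fatty acid genes, 4 rose and 8 fell (median -0.26). Lipoprotein lipase LPL (-4.18), the lipid droplet coat PLIN2 (-1.64) and the acyl-CoA synthetase ACSL3 (-1.35) fell, whereas the fatty acid transporter SLC27A2 rose (2.99).

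Signalling genes of the WNT and TGF-beta families included some of the steepest changes. WNT7A, a ligand made by uterine epithelium, was at 0.233, 0.266, 0, 0.0589 and 0.616 CPM on day 16, against 34.7, 27.2, 29.2, 42.3 and 15.8 CPM on day 7 (-6.96 ± 0.51, adjusted p = 8.35e-09). WNT11, another ligand, fell by steps, with a log2 fold change of -1.18 on day 13 and -2.4 on day 16. In the whole list of 41 WNT genes 10 rose and 5 fell (median 0.08), and 6 of 15 receptors rose and 0 fell. Of the 7 target genes of the pathway 1 rose, 2 fell and 4 did not pass (median -0.17). The feedback targets AXIN2 (-0.88) and NKD1 (-1.85) fell. Without day 7 library 2-371 6 of the 41 rose (median 0.01). MSTN, myostatin, was at 15.3, 20.3, 7.00, 8.22 and 20.7 CPM on day 16, against 0.793, 0.897, 0.713, 0.759 and 2.4 CPM on day 7 (3.68 ± 0.39, adjusted p = 5.01e-07). The day 5 libraries had held 11.5 to 18.4 CPM of MSTN, all of them above the day 7 range, so day 7 was its low point among the 4 days. LGR5, a stem cell receptor, was at 39.6, 55.6, 68.1, 22.7 and 27.6 CPM on day 16, against 14.2, 11.7, 3.18, 7.14 and 36.2 CPM on day 7, with overlap (1.56 ± 0.57, adjusted p = 0.0367). That call was lost when day 16 library 2-068, 3-155 or 5-137 or day 7 library 2-1337, 2-371, 4-064 or 5-117 was left out (adjusted p of up to 0.0907). Of 27 TGF-beta family genes 7 rose, among them the co-receptor TGFBR3 (1.05), and 7 fell (median 0.14).

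Among 22 uterine transcription factors and signals 5 rose and 6 fell. FOXO1, a factor of decidualizing and quiescent cells in other species, averaged 142 ± 20.5 CPM on day 16 and 53.6 ± 4.73 CPM on day 7 (SD, n = 5 each; 1.41), and LIFR, the receptor of leukemia inhibitory factor, rose (1.56). The homeobox factor MSX1 fell to 142, 148, 141, 206 and 152 CPM on day 16, against 645, 659.7, 777, 717 and 684 CPM on day 7 (-2.14 ± 0.17, adjusted p = 2.48e-08). The hedgehog ligand IHH (-2.59), a progesterone-induced signal in mouse epithelium, and the factors PAX2 (-1.8) and GATA2 (-1.34) also fell, all 4 of them as lasting changes.

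Cell division genes were low on day 16 and had been low since day 13. All 15 tested mitosis genes fell, and of 36 genes of mitosis, DNA replication and their control 22 fell and 2 rose, against 19.7% and 18.5% of all genes; the list median was -0.88. TOP2A, the topoisomerase of dividing cells, was at 2.67, 2.48, 4.91, 1.88 and 2.64 CPM on day 16, against 55, 77.6, 23, 8.83 and 109 CPM on day 7 (-4.23 ± 0.51, adjusted p = 2.33e-06). The proliferation marker MKI67 was at 3.69, 3.22, 8.04, 2.47 and 1.94 CPM on day 16, against 52.6, 70.4, 24.2, 14.6 and 93.5 CPM on day 7 (-3.72 ± 0.48, adjusted p = 6.17e-06). The groups did not overlap for either gene, but the day 7 libraries spread widely, with 5-117 lowest and 6-338 highest for both. Cyclin B1, CCNB1, fell by steps (-1.09 on day 13 and -2.12 on day 16), and the kinetochore gene CENPF (-4.02) and the ribonucleotide reductase subunit RRM2 (-3.55) fell. The 2 genes that rose were RRM1 (0.87), the large subunit of the same enzyme, and the cell cycle inhibitor CDKN1A (0.97). Of the 13 replication genes 4 fell and 1 rose.

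Folding enzymes of the endoplasmic reticulum fell as well. Of 26 heat shock and unfolded protein response genes 12 fell and 4 rose (median -0.22), and all 6 tested folding enzymes were among the 12, by small amounts: CANX, calnexin, had 766, 642, 705, 718 and 672 CPM on day 16, against 1263, 1420.3, 1492, 1210.0 and 999.6 CPM on day 7 (-0.87 ± 0.10, adjusted p = 1.24e-06), and PDIA6, a disulfide isomerase, had a log2 fold change of -0.66. The chaperone HSPA5 fell (-0.50) without overlap between the days. The cytosolic chaperone HSPB1 rose (0.81). Without day 16 library 3-155 or day 7 library 4-064 2 of the 26 rose.

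**Figure D3:**
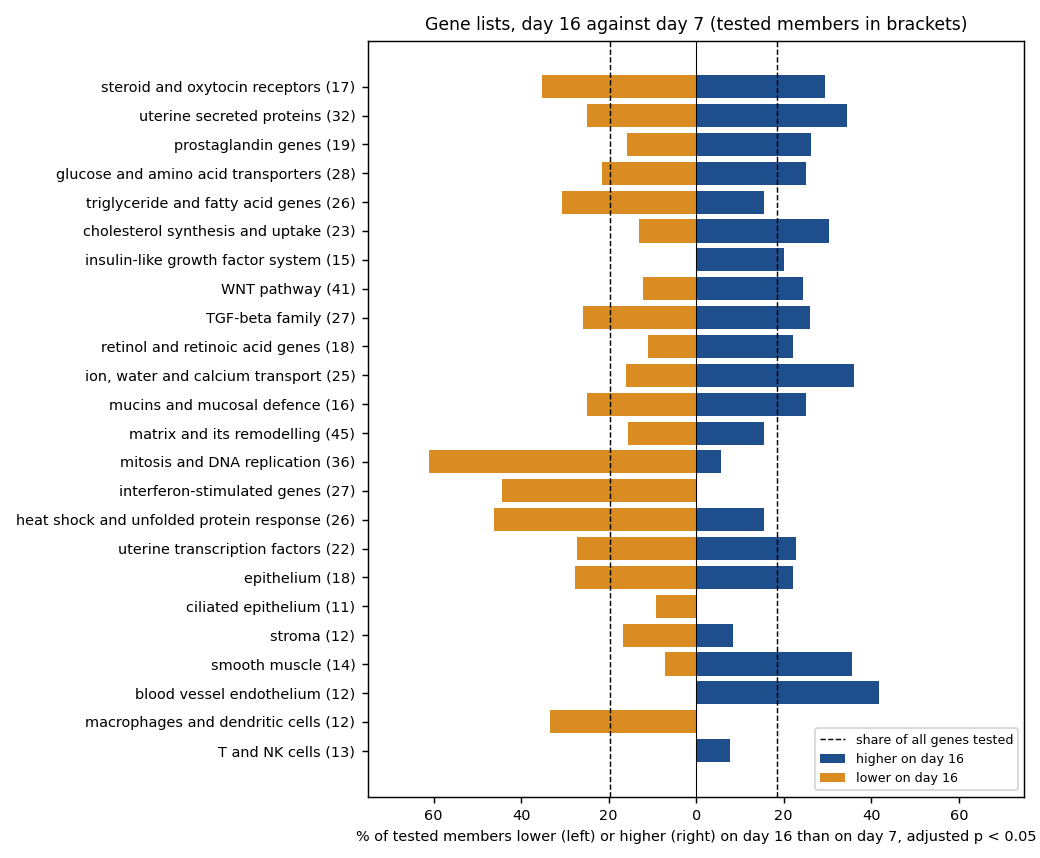
Percent of the tested members of each list of at least 10 tested genes that were higher (blue, to the right) or lower (orange, to the left) on day 16 than on day 7; dashed lines mark the shares over all 19559 genes, 18.5% higher and 19.7% lower. The mitosis and DNA replication list reaches furthest to the left with 22 of 36 genes lower, and blood vessel endothelium furthest to the right with 5 of 12 higher.

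Interferon-stimulated genes, which respond to interferon tau and to infection, had a list median of -1.73, with 12 of 27 lower and 0 higher on day 16, and 2 day 7 libraries stood far above the rest. ISG15, a ubiquitin-like effector, was at 3.98, 9.88, 7.06, 3.03 and 4.11 CPM on day 16, against 4.35, 4.61, 2.79, 403 and 56.6 CPM on day 7. Only libraries 5-117 and 6-338 of day 7 stood above the day 16 range, and the other 3 lay within it or below it. The log2 fold change was -4.07 ± 1.29, adjusted p = 0.0174, and without day 7 library 5-117 it was -1.62 with an adjusted p of 0.229. MX1, an antiviral GTPase, was at 98.1, 179, 168, 68 and 106 CPM on day 16, against 56.5, 75.1, 38.1, 1584 and 557 CPM on day 7 (-1.9 ± 0.92, adjusted p = 0.11), and its difference did not pass. MX2 (-4.38), IFIT1 (-3.02) and RSAD2 (-2.76) passed, and in each the same 2 day 7 libraries stood above all others. Without day 7 library 5-117 none of these 3 passed, with adjusted p of 0.212 for MX2, 0.355 for IFIT1 and 0.383 for RSAD2. IFIT1 was also lost without day 16 library 2-068, 5-137, 7-107 or 8-245 (adjusted p of up to 0.0639), and RSAD2 without day 16 library 2-068 or 7-107 (up to 0.0523). With log2 depth as a covariate both were lost (adjusted p = 0.0647 for IFIT1 and 0.0546 for RSAD2) and 9 genes of the list were lower. Limma-voom called none of ISG15, MX2, IFIT1 and RSAD2. Without day 7 library 5-117 the list had 3 genes lower and 1 higher, with a median of -0.57, and the RNA sensor DDX58 still passed with -1.19 (adjusted p = 0.0364) in place of -1.88. Without day 16 library 7-107 or 8-245 8 genes of the list were lower, with limma-voom 3, and with the microRNA and tRNA share as a covariate 0. The macrophage genes C1QA, C1QB and C1QC, subunits of complement C1q, fell (-1.44, -1.3 and -1.38) and were highest in the same library: C1QA was at 26.3, 22, 22.3, 29.6 and 18.4 CPM on day 16, against 60.9, 47.5, 31, 141 and 41.1 CPM on day 7. Of 12 tested macrophage and dendritic cell markers 4 fell; leaving out library 5-117 also gave 4 lower, and the covariate on the microRNA and tRNA share gave 0. The summed level of the 13 in the table was 178 to 256 CPM on day 16 and 167 to 599 CPM on day 7.

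**Figure D4:**
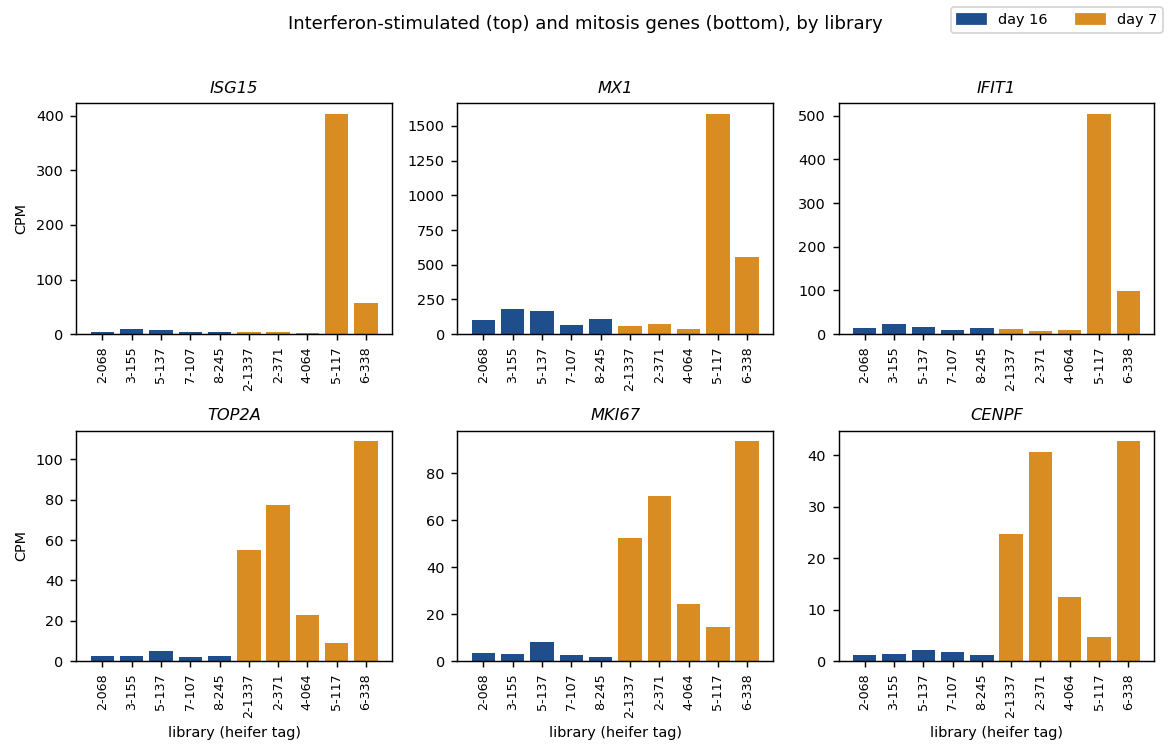
CPM of 3 interferon-stimulated genes (top row) and 3 mitosis genes (bottom row) in each of the 5 day 16 libraries (blue, left) and the 5 day 7 libraries (orange, right). Library 5-117 is highest among the 10 in the top row and lowest of the day 7 libraries in the bottom row, and every day 16 library is low in the bottom row.

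Some vessel and muscle markers were higher on day 16, on which 18.5% of all genes were higher and 19.7% lower. Of 12 blood vessel endothelium markers 5 rose and 0 fell, by log2 fold changes under 1; PECAM1 was at 82.5, 43.2, 76.9, 76.4 and 77.6 CPM on day 16, against 56.6, 54.3, 49.6, 30.3 and 22.1 CPM on day 7 (0.74 ± 0.22, adjusted p = 0.0112), with overlap. Their summed level was 695 to 1195 CPM on day 16 and 448 to 895 CPM on day 7. Without day 16 library 8-245 or day 7 library 6-338 2 of the 12 rose, and without day 16 library 2-068 or 7-107 or day 7 library 5-117 3 rose. Of 14 smooth muscle markers 5 rose and 1 fell (median 0.26), and without day 16 library 8-245 or 2-068 or day 7 library 6-338 or 2-371 2 rose and without day 7 library 4-064 3. With the microRNA and tRNA share as a covariate 7 of the 14 rose and 0 fell (median 1.14). Day 16 library 8-245 held 266 CPM of the smooth muscle gene TAGLN, while the other 4 day 16 libraries held 50.03 to 120.2 CPM and the day 7 libraries 36.2 to 99.8 CPM. The call of TAGLN was lost without library 8-245 (log2 fold change 0.51, adjusted p = 0.235), without several other single libraries and with limma-voom (adjusted p = 0.0772). The stroma list had 1 gene higher and 2 lower of 12 (median 0.19), but 6 higher and 0 lower with the microRNA and tRNA share as a covariate (median 0.70). The collagen COL1A1 was 1 of the 2 (-0.71 ± 0.25, adjusted p = 0.0306), a call lost without day 16 library 3-155, 5-137 or 7-107 or day 7 library 2-1337 or 6-338 (adjusted p of up to 0.0848). SPARC, a collagen-binding protein, fell (-0.69), as did the matrix protease MMP2 (-0.87).

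The reverted genes had changed on day 13 and moved back by day 16. Reverted means that the day 16 value no longer passed against day 7, which does not show that the levels were equal. COL22A1, a collagen of tissue junctions, was at 13.1, 18.7, 18.8, 7.24 and 6.6 CPM on day 16, against 17.2, 19, 58.2, 19.7 and 2.4 CPM on day 7 (-0.86 ± 0.58, adjusted p = 0.262). In between, on day 13, all 5 libraries were higher than those of day 16, at 169, 129, 94.5, 85.2 and 46.1 CPM, with a log2 fold change of 2.17 against day 7 and -3.02 for day 16 minus day 13. DGAT2, which makes triglyceride, was the only reverted gene of the lipid list, with log2 fold changes of 1.13 on day 13 and -0.85 on day 16; without day 7 library 6-338 it was lower on day 16 than on day 7 (-1.08, adjusted p = 0.0187). POF1B (2.09 and 0.51), an actin-binding protein of epithelial junctions, the kinase STYK1 (1.68 and 0.42), the linker histones HIST1H1D (1.19 and 0.17) and HIST1H1C (1.14 and -0.60) and the organic anion transporter SLCO1A2 (1.04 and -0.47) followed the same course on days 13 and 16. STYK1 has a second entry in the table, and reads of the near-identical histone genes may be shared.

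Of the 9 genes that were low on day 13 and back on day 16, SLC16A3, a lactate exporter, was at 7.97, 16.2, 18.2, 10.5 and 15.4 CPM on day 16, against 13.5, 11.7, 15.5, 12.1 and 10.9 CPM on day 7 (0.10 ± 0.20, adjusted p = 0.729). Its day 13 libraries had lain at 4.17 to 8.07 CPM. ITGB3, an integrin subunit, was at 166, 116, 177, 104 and 158 CPM on day 16, against 179, 149, 132, 106 and 83.8 CPM on day 7, and at 55 to 75.3 CPM on day 13, below every library of the other 2 days. CYP1A1, the xenobiotic enzyme induced through the aryl hydrocarbon receptor, had log2 fold changes of -1.49 on day 13 and 0.65 on day 16, the sulfate transporter SLC26A1 of -1.12 and -0.20, and the proteoglycan CSPG5 of -1.23 and 0.08.

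The 12 partly reverted genes stayed on the far side of day 7 while moving back from their day 13 level. CYP26A1, which breaks down retinoic acid, was at 18.7, 43, 55.9, 58.2 and 11.9 CPM on day 16, against 0.47, 0.64, 0.803, 0.242 and 0.178 CPM on day 7 (6.31 ± 0.54, adjusted p = 4.88e-08). On day 13 it had been at 353, 191, 294, 234 and 207 CPM, above every day 16 library, and the step between was -2.77 ± 0.41, adjusted p = 0.00297. LRAT, which stores retinol as esters, was late and went down: it was at 37.4, 38.5, 34, 54.9 and 40.3 CPM on day 16, against 148, 209, 217, 206 and 159 CPM on day 7 (-2.19 ± 0.26, adjusted p = 1.93e-06), and still at 97 to 230.4 CPM on day 13. Of 18 retinol and retinoic acid genes 4 rose and 2 fell (median 0.06). The serine synthesis enzyme PSPH (4.01 on day 13 and 2.46 on day 16), the guanine deaminase GDA (2.61 and 1.21) and the kinase MATK (2.13 and 1.05) were partly reverted from above. PLA2G4F, a cytosolic phospholipase, was the only one partly reverted from below (-4.29 and -2.81).

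**Figure D5:**
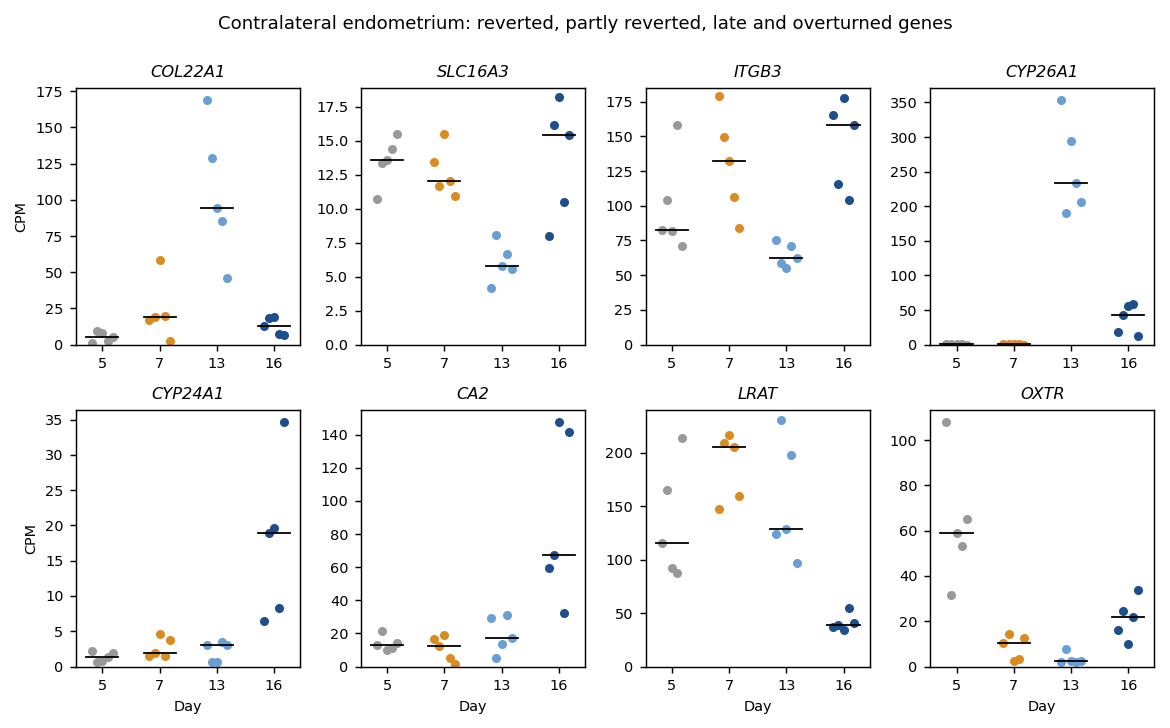
CPM on linear axes in the 5 contralateral libraries of each day for 8 genes; points are libraries and bars are medians. COL22A1, SLC16A3 and ITGB3 depart from day 7 on day 13 and overlap it again on day 16, CYP26A1 keeps part of its day 13 rise, CYP24A1, CA2 and LRAT stand apart from day 7 on day 16 but overlap it on day 13, and OXTR is lowest on day 13.

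The late genes had not passed on day 13, passed on day 16 and passed between those days as well. TDGF1, cripto, a co-receptor for nodal, was at 103, 107, 115, 191 and 91.5 CPM on day 16, against 2372, 2528, 3152, 2819 and 1384 CPM on day 7 (-4.33 ± 0.44, adjusted p = 3.62e-07). Its day 13 libraries held 853 to 1762 CPM, of which 2 lay inside the day 7 range (-0.97 ± 0.39, adjusted p = 0.0623), and the step between days 13 and 16 was -3.36 ± 0.42, adjusted p = 8.06e-04. The anchoring protein AKAP6 (-2.65), the signalling inhibitor SPRY3 (-2.46) and the glycolytic enzyme hexokinase HK2 (-2.18) were late and lower. CRYGS, a crystallin, was late and higher, at 5.78, 12.8, 37.2, 9.48 and 25.8 CPM on day 16, against 0.352, 0.384, 0.416, 0.414 and 0.888 CPM on day 7 (5.2 ± 0.65, adjusted p = 4.08e-06). Carbonic anhydrase CA2, which forms bicarbonate, was at 59.2, 67.3, 148, 32.6 and 142 CPM on day 16, against 16.8, 12.5, 19.1, 5.42 and 1.72 CPM on day 7 (3.01 ± 0.57, adjusted p = 3.04e-04). The chromatin protein HMGB3 (1.24) and FNIP2 (1.11), a partner of folliculin, rose late without overlap.

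The other horn gave no gene whose difference between day 16 and day 7 differed from that of the contralateral horn. In a test of that difference over 19651 genes in 20 libraries, 0 genes passed (0% called) by edgeR's quasi-likelihood test, and 0 passed by DESeq2. By the quasi-likelihood test 236 genes (1.20%) had an unadjusted p below 0.05. That share lies under the 0.05 that a well calibrated test would give on average with no gene changed. Genes of the same library can move together, so this share alone does not settle whether the test was cautious, and its calibration was not tested. A test that calls none does not show that the horns were equal. In a fit of the 20 ipsilateral libraries, where 31.4% of genes passed between day 16 and day 7, the classes set in the contralateral horn gave the following counts. Of the 774 lasting genes that were higher 762 could be tested there and 636 passed in the same direction with a median log2 fold change of 1.48, and of the 1011 that were lower 994 could be tested and 894 passed with a median of -1.73. The 15 reverted genes that had been higher had ipsilateral medians of 1.41 on day 13 and -0.03 on day 16, and the 9 that had been lower had medians of -1.20 and 0.04. Of the 39 late genes that were lower 37 passed lower in the ipsilateral horn, and of the 11 that were higher 10 passed higher. The step between days 13 and 16 passed there less widely, in 13 of those 39 and 7 of those 11, and of the reverted genes 3 of 15 passed back from above and 4 of 9 from below. Without ipsilateral day 16 library 5-137, a fit chosen after the data had been seen, 31.1% of genes passed there, among them 628 of the 765 lasting higher genes and 926 of the 1003 lasting lower genes that could be tested. Going by the tags, both horns come from the same heifers, so these counts are no separate sample of animals.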

How the data were processed

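Endometrial RNA libraries of 40 samples (20 heifers, both horns, 4 days, 5 libraries a group) were used; this report rests on the 20 contralateral ones, and on the ipsilateral ones for the other horn. The authors deposited a table of raw read counts per gene for 32671 genes. FastQC, HISAT2, featureCounts and the UMD3.1 build are named in the submitters' processing notes, with no versions; whether counting used strand is not given there. The mitochondrial row was kept out of totals and tests, and 27 entries whose names had become dates were not named.

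Low-count genes were removed with edgeR's default filter, leaving 19559 genes in the contralateral fit of all 4 days and 19651 in the horn fit. TMM scaling and edgeR's quasi-likelihood test (R 4.3.3, edgeR 4.0.16, limma 3.58.1) gave log2 fold changes and p-values adjusted by the Benjamini-Hochberg method over all genes, called below 0.05. Standard errors are the absolute log2 fold change divided by the square root of the test's F. DESeq2 1.42.0, limma-voom, other scalings, filters, covariates and leaving out each library were the alternatives. The code was tested on simulated data with 50 changed genes of each kind, far fewer than were called here. Of changes set on days 13 and 16, 30% of the 2-fold and 92% of the 4-fold ones were classed as lasting. Of 4-fold changes set on day 13 only, 86% were classed as reverted, and smaller ones were not simulated. Counting depth was 30.8 to 35.5 M counts per library on days 7 and 16.

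Lasting, reverted, partly reverted, overturned and late genes were defined from the 3 contrasts among days 7, 13 and 16. Genes were named by a rule of effect size among called genes, over the table, per list (6) and per class (8), which gave 179 genes; some others are named as members of a list or after their values were seen. The 30 lists held 606 entries, of which 595 were in the table and 562 were tested. The members and lists were chosen with earlier results of these data known. P-values measure the spread between heifers by tag. No sequence or coordinate is given.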

Additional observations from a re-analysis of the deposited data

Results flagged for a closer look

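In groups of 5 libraries, 262 sets of values were examined for 1 library far from its nearest neighbour. The limit was a distance of more than 0.71 of the range of the group, and 21 were past it. About 1 in 20 groups of independent, normally distributed values would be. CPM values need not be normal and genes of the same library can move together, so the 21 cannot be set against that rate. The number after each gene below is that share of the range.

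Day 7 library 5-117 was the highest for ISG15 (0.865), MX2 (0.897), IFIT1 (0.815), RSAD2 (0.836), C1QA (0.729) and C1QB (0.746), 6 of the 21. ISG15 was at 403 CPM there and at 56.6 CPM in the nearest library, 6-338. Library 6-338 of the same day was the highest for TFF3 (0.86), MSTN (0.891) and CRYGS (0.881). Day 7 library 2-1337 was the highest for MMP2 (0.885), with 1104 CPM against 601 CPM in the nearest library, and the lowest for PTGER2 (0.886).

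Day 16 library 7-107 was the highest for CLU (0.749), NKD1 (0.808), TDGF1 (0.764), MSX1 (0.836) and IHH (0.834), and the lowest for PTGER2 (0.718), also 6 of the 21. For TDGF1, NKD1, MSX1 and IHH, all lower on day 16 than on day 7, that library was the one nearest to day 7. Day 16 library 5-137 was the highest for the mitosis genes TOP2A (0.739) and MKI67 (0.712). Library 8-245 of that day was the highest for MUC20 (0.893) and library 3-155 the lowest for the endothelial gene PECAM1 (0.844).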

How the results depend on the processing

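Of 114 named genes that passed between day 16 and day 7, 83 kept that call under all 24 alternatives. The call was lost in 11 when some 1 library was left out and in 29 under some other setting. Only this contrast was followed for each named gene, not its class. Median shifts over all genes were -0.023 to 0.0161. With the share of reads in microRNA and tRNA genes as a covariate 4242 genes passed between day 16 and day 7 and 77 were late. That fit ended the calls of AXIN2, C1QA, C1QB, C1QC, CD163, CDKN1A, COL1A1, CRABP1, DDX58, EPCAM, ESR1, FKBP5, IFIT1, ISG15, LGR5, MMP2, MX2, OXTR, PENK, PLA2G4A, RRM1, RSAD2, SLC1A1, SLC7A8, SPARC, SQLE and WFDC2, and it turned the sign of COL1A1 (0.37), SPARC (0.16), STYK1 (-0.17), HIST1H1D (-0.72) and HIST1H1C (0.0761); the cause was not tested. In lists it gave 3 higher and 2 lower of the glucose and amino acid transporters, 6 and 3 of the WNT genes, 5 and 3 of the TGF-beta family, 5 and 3 of the ion, water and calcium genes, 3 and 2 of the prostaglandin genes, 4 and 2 of the mucin and defence genes, 0 and 16 of the mitosis and replication genes, 2 and 10 of the heat shock genes, 9 and 6 of the transcription factors, 1 and 6 of the epithelial markers and 8 and 0 of the endothelial markers. Near-zero reverted genes also changed sign without single day 16 libraries: over all such fits HIST1H1D ran from -0.0277 (without 3-155) to 0.355, CSPG5 from -0.0477 (without 7-107; -0.0135 without 2-068) to 0.201, and SLC16A3 from -0.0231 (without 5-137) to 0.230. Leaving out 1 library gave 6698 to 7585 genes passing, 1627 to 1855 lasting, 11 to 26 reverted (11 without day 13 library 5-167 and 12 without day 16 library 2-068) and 29 to 63 late (29 without day 16 library 8-245 and 30 without 2-068). DESeq2 gave 38 reverted and 108 late genes, and the fit of 15 libraries gave 14 reverted. OXTR, PECAM1, TAGLN, the endothelial gene VWF and the smooth muscle gene MYH11 did not pass in the fit of the 10 libraries of days 7 and 16. TAGLN and MYH11 also did not pass with limma-voom.

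For the horn difference, the count was 0 under every alternative run, including the fit with the heifer tag as a replicate block (0, with 193 genes at an unadjusted p below 0.05), and leaving out any 1 library gave 0 to 0. Same-tagged libraries deviated together beyond a correlation of 0.1 in 3 of 10 tags (-0.258 to 0.669). Only 3 of 10 correlated best with their own tag, and the best correlations ran from 0.383 to 0.734. On day 7, 6-338 correlated best with tag 5-117 (0.734), 5-117 with 4-064 (0.669) and 4-064 with 6-338 (0.640). On day 16, 2-068 correlated best with tag 7-107, 7-107 with 5-137, 5-137 with 3-155 and 3-155 with 2-068. The titles give the tags, and whether they pair the horns correctly was not tested. The block used those pairs as given, so its unchanged count does not bear on this. Groups of different days share no tags, so no block could be fitted between days. Depth limits the low genes: the 5 day 7 libraries of IGFBP1 and the day 16 libraries of SLC2A5 rest on few reads.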

Other observations

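Of 45 matrix genes 7 were higher and 7 lower on day 16, with a median of -0.14, and the split moved with the fit. With the microRNA and tRNA share as a covariate 11 were higher and 0 lower (median 0.59), and DESeq2 gave 11 lower. Without day 7 library 4-064 3 were higher and 13 lower, without day 7 library 2-371 or day 16 library 2-068 3 were higher, without day 7 library 6-338 or day 16 library 5-137 or 7-107 4 were higher, and without day 16 library 8-245 11 were lower. Of 14 collagens 3 were lower and 0 higher. Markers of ciliated epithelium gave 1 of 11 lower and 0 higher, and their summed level was 250 to 678 CPM on day 16 and 237 to 860 CPM on day 7. Neutrophil markers summed to 2.56 to 6.75 CPM on day 16 and 0.981 to 2.42 CPM on day 7. T and NK cell markers summed to 33.9 to 67.0 CPM on day 16 and 36.4 to 76.6 CPM on day 7. The trophoblast list summed to 77.5 to 187 CPM on day 16 and 14.3 to 33.1 CPM on day 7, a sum that includes PTGS2 with its 67.1 to 175 CPM on day 16 and 3.98 to 11.7 CPM on day 7, while PAG2, PAG8, PAG12 and CDX2 averaged under 0.1 CPM. CRABP1, a cytosolic carrier of retinoic acid, had a log2 fold change of -1.48 ± 0.48, adjusted p = 0.0195, which was lost without day 7 library 6-338 (adjusted p = 0.0823) or day 16 library 5-137 (0.0507).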
